A study of Homo sapiens with 6 samples.

Results

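Centromere and kinetochore genes were followed across 6 one-colour arrays of A549, a long-established cell line from a human lung adenocarcinoma. The set was chosen by name: 40 gene symbols of centromeric chromatin, the kinetochore, the chromosomal passenger complex and their partners were looked up in the deposited table, and 1 probe set, the brightest over the 6 arrays, stood for each gene. The table held 39 of the 40 among 18132 genes with a probe set of their own. The remaining symbol, CENPJ, is annotated as CPAP and was kept apart, also because CPAP is a centriole protein and no part of the centromere. The 3 knockdown arrays (titled sh_LINC00525) are A549 cells in which the long noncoding RNA LINC00525 was silenced, and the 3 control arrays (titled sh_ctrl) are A549 cells given a scrambled control. The titles use sh for both groups, but siRNA is what the treatment field describes. Knockdown replicates 2 and 3 carry LINC00526 and LINC00527 in the genotype field, although their titles name LINC00525. All groups share the cell line and culture medium, and no label gives the time after silencing, the dose, or whether replicates were separate cultures, so each p-value reflects the spread of these arrays alone, which may be technical.

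The kinetochore is the protein assembly that ties each chromosome to spindle microtubules during mitosis. It is built outward from nucleosomes that carry the histone variant CENP-A, with an inner layer of CENP proteins on this chromatin. The outer KNL1, MIS12 and NDC80 complexes together link this layer to microtubules. Checkpoint proteins gathered at the kinetochore delay anaphase until all chromosomes are attached. Many of these genes are transcribed mainly from S phase to mitosis, so their transcript level in a culture follows both how many cells are dividing and how much each makes.

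Every one of the 39 genes had a lower mean signal on knockdown arrays than on control arrays, and 26 of them fell past the threshold (limma, Benjamini-Hochberg adjusted p under 0.05 over all 18132 genes), while 0 rose and 13 did not pass. Over all genes tested, 55.2% had a lower mean signal on knockdown arrays, 6.83% were called lower and 5.77% higher. The falls were small. The median log2 change was -0.21, against -0.01 over all genes, and single genes ranged from -0.45 for ZWINT to -0.03 for CENPH. The 3 knockdown values lay wholly below the 3 control values for 34 of the 39 genes, a pattern shown by 17.9% of all genes. It lay wholly above for 0 of the 39, against 12.9% of all genes. All values are log2 array signals, and the deposited normalization makes each difference relative to the other genes. Signals of different probe sets have no common scale, so levels are not compared between genes.

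**Figure D1:**
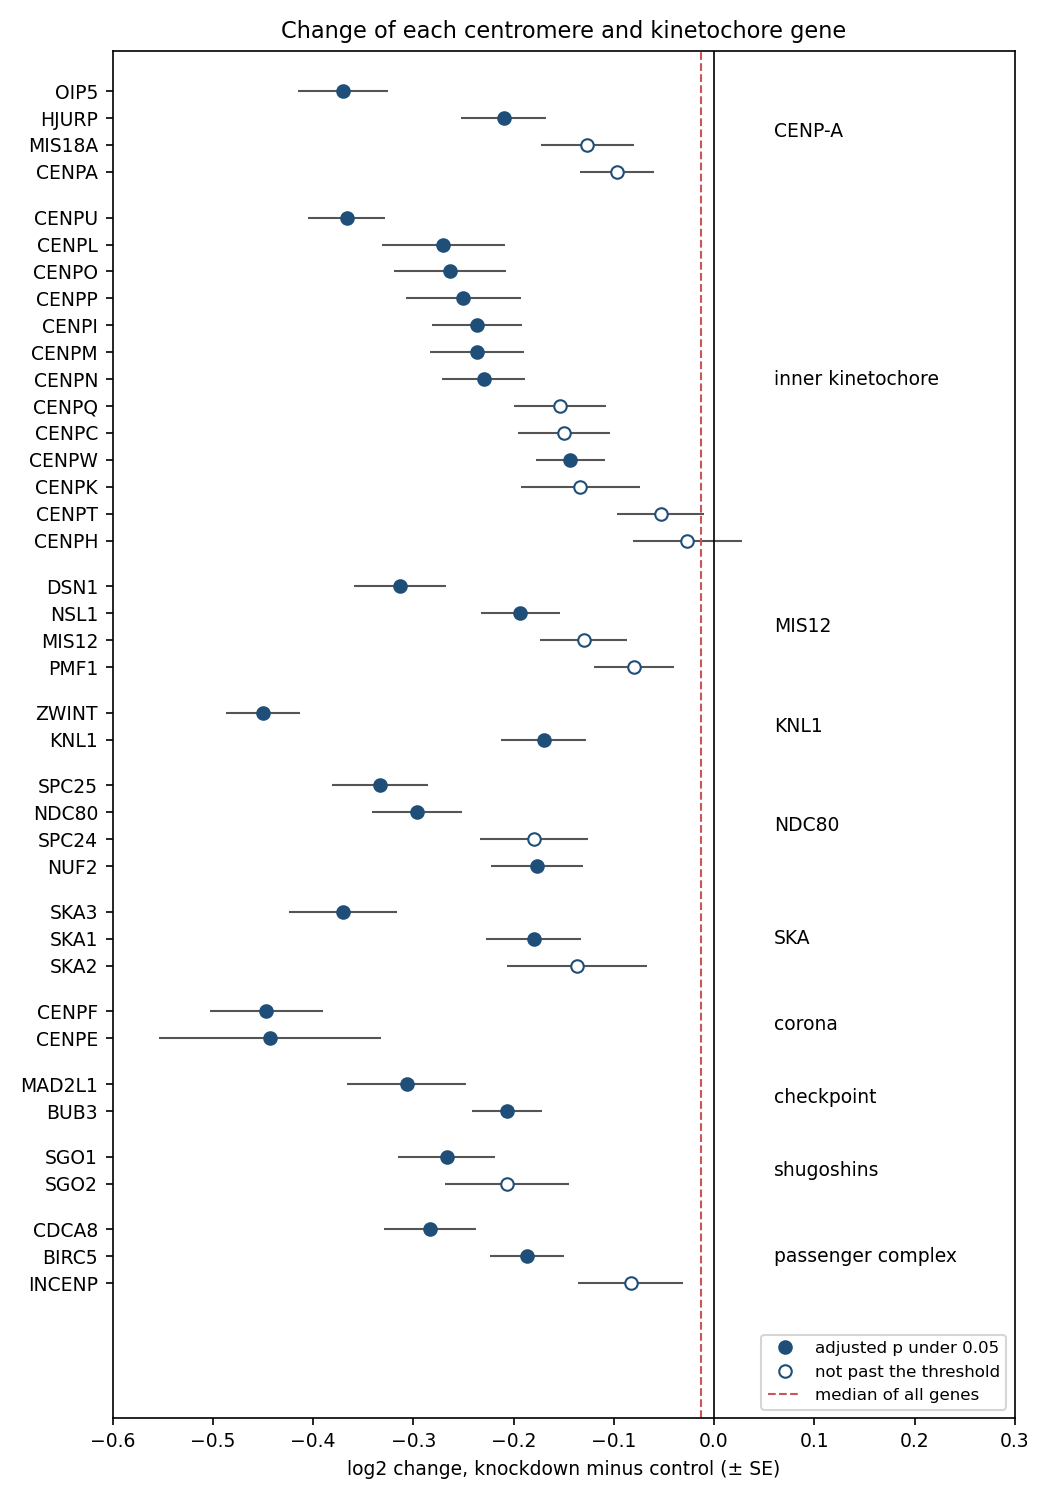
Log2 change (knockdown minus control, ± SE, 3 arrays per group) of the 39 genes, grouped by role and sorted by change within a role. Filled points passed an adjusted p under 0.05, open points did not, and the dashed line is the median of all genes at -0.01. All points lie left of 0.

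The targeted transcript and the gene of the study's title frame these values. LINC00525 read 3.67, 3.45 and 3.54 on knockdown arrays, against 3.86, 3.74 and 3.97 on control arrays (log2 -0.30 ± 0.075 SE, limma adjusted p = 0.0372). The groups did not overlap, but the probe set lay near background: control signals of 17 Tag control probe sets (probes with no human target) reached 4.60, and 1 of the 17 was above LINC00525. The call was lost without variance moderation (adjusted p = 0.151) and on leaving out knockdown replicate 2 or 3 or control replicate 1 or 3. CDKN1A, which encodes the cyclin-dependent kinase inhibitor p21, rose by log2 0.55 ± 0.055 (SE, limma adjusted p = 0.00089). The exact permutation test gave p = 0.1 for LINC00525, the smallest that 3 arrays against 3 allow.

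In 6 of the roles the gene with the largest called fall was ZWINT, CENPF, OIP5, SKA3, CENPU or SPC25, and their promoter windows are shown because these genes carry the largest falls of their roles. Each window runs from 250 bases before to 50 after the annotated start (RefSeq, GRCh38.p14), 5′ to 3′ on the gene's strand. For ZWINT 2 windows were available, and the first is shown. Capitals mark letters of the cell cycle homology region (TTTGAA or TTCGAA), of the CCAAT box or of E2F-type sites (TTGGCGC or TTCGCGC), searched on both strands, with 0 overlaps between matches in these windows. The windows are ZWINT chr10:56361210-56361509 (minus strand), CENPF chr1:214602945-214603244 (plus), OIP5 chr15:41332542-41332841 (minus), SKA3 chr13:21176503-21176802 (minus), CENPU chr4:184734047-184734346 (minus) and SPC25 chr2:168890381-168890680 (minus).
ZWINT: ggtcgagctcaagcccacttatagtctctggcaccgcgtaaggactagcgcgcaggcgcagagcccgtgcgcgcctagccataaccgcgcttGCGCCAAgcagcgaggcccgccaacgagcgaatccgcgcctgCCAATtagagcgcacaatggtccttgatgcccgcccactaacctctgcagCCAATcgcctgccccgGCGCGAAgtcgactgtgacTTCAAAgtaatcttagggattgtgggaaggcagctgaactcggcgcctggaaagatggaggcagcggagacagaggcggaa
CENPF: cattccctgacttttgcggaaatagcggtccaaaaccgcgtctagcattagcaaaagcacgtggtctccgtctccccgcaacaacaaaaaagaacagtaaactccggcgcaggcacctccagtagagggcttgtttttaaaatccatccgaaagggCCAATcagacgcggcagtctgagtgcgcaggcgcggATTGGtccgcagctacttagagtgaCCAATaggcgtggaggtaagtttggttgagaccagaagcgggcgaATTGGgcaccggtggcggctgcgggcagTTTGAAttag
OIP5: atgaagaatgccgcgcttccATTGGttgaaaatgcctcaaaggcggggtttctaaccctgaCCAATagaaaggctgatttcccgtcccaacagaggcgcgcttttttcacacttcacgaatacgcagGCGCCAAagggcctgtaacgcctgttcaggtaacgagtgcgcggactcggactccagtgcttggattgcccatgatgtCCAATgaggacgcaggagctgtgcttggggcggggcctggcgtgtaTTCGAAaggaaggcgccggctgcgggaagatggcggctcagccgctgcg
SKA3: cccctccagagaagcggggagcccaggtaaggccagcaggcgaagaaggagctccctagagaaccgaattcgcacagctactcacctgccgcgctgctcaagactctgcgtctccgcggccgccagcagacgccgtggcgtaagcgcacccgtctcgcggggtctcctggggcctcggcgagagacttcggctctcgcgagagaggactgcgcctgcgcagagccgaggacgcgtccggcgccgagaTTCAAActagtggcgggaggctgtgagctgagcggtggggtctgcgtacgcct
CENPU: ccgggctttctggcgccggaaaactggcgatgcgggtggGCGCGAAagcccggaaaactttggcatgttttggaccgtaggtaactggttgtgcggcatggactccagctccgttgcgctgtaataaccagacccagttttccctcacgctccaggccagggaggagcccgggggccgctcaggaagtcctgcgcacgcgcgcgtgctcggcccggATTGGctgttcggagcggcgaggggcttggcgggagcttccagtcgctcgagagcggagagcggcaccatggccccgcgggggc
SPC25: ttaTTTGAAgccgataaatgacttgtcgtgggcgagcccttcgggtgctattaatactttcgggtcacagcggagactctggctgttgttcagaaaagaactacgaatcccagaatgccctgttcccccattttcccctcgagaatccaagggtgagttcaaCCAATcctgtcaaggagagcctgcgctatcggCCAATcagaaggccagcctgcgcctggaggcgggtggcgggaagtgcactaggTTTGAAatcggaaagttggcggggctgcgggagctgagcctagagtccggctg
The cell cycle homology region is the DNA element through which the DREAM complex and the MuvB-MYBL2-FOXM1 activators act on genes of late cell cycle phases, and the CCAAT box is bound by NF-Y. In the ZWINT window the TTTGAA letters stood 31 bases before the start site on the opposite strand, with CCAAT 66 and 116 bases before it. The SKA3 and SPC25 windows held TTTGAA letters that begin 3 bases before the start site and run across it, in SKA3 on the opposite strand. SPC25 held them again 247 bases before the start site. OIP5 held TTCGAA letters 1 base after the start site, and the match of CENPF, TTTGAA, lay 40 bases after it. The CENPU window held neither form. A window was found for 32 of the 39 genes. The table gave none for BIRC5, BUB3, CENPH, CENPL, CENPM, KNL1 and MIS18A. TTTGAA or TTCGAA occurred in windows of 18 of the 32 genes (56.2%), against 16.4% of all 35116 windows and 17.5% of 15843 protein-coding genes. CCAAT occurred in 22 of the 32 (68.8%), against 34.6% of all windows and 42.1% of protein-coding genes. E2F-type letters occurred in 7 of the 32 (21.9%), against 5.06% of all windows and 8.41% of protein-coding genes. Of the 18 genes with TTTGAA or TTCGAA letters 15 fell, with a median log2 change of -0.27. Of the 14 genes whose windows lacked them 6 fell, with a median of -0.19. Of the 7 genes without a window, 5 fell, also with a median of -0.19. These shares are descriptions of letters, the members were not drawn at random, and the difference was not tested.

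CENP-A chromatin and its deposition came first by position. OIP5, a subunit of the MIS18 complex that prepares centromeres for new CENP-A, read 8.03, 7.93 and 8.05 on knockdown arrays, against 8.40, 8.38 and 8.34 on control arrays. It fell by 0.37 ± 0.045 (SE, limma adjusted p = 0.00244), and no knockdown array reached a control array. HJURP, the chaperone that delivers CENP-A, fell by 0.21 ± 0.042 (adjusted p = 0.0185), with 9.33 ± 0.045 on knockdown and 9.54 ± 0.040 on control arrays (SD, n = 3 each). CENPA itself was at 9.37, 9.34 and 9.39 on knockdown arrays and at 9.44, 9.46 and 9.49 on control arrays, and did not pass (log2 -0.10, 95% confidence interval -0.18 to -0.01, limma adjusted p = 0.141). That value depends on the probe set. The brightest CENPA probe set carries the suffix _s_at, which marks probes that can bind related transcripts, and others gave -0.28 and -0.24, both falls (limma adjusted p of 0.0125 and 0.0279, probe-set fit), and -0.14 (adjusted p = 0.107). Without _s_at and _x_at probe sets CENPA was at -0.28 (adjusted p = 0.0110), and with its probe sets averaged at -0.19 (adjusted p = 0.0113). MIS18A, partner of OIP5, was at -0.13 (adjusted p = 0.126), and its second probe set at -0.20 (adjusted p = 0.0383 over all probe sets).

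The inner kinetochore, the constitutive centromere-associated network, had 13 measured members, of which 8 fell and 5 did not pass, with a median log2 change of -0.23. CENPU, which with CENPO, CENPP and CENPQ forms a module that recruits the kinase PLK1, read 7.95, 7.88 and 7.96 on knockdown arrays, against 8.29, 8.31 and 8.29 on control arrays. It fell by 0.37 ± 0.039 (SE, limma adjusted p = 0.00129), the largest change of this layer. Its module partners moved less. CENPO fell by 0.26 ± 0.056 and CENPP by 0.25 ± 0.057, and CENPQ was at -0.15 (adjusted p = 0.0709). The CENPP call was lost with its probe sets averaged (adjusted p = 0.0749), where the dimmer ones lay within the Tag range. CENPL and CENPN together read the CENP-A nucleosome. CENPN fell by 0.23 ± 0.042 at its brightest probe set, and its other probe sets above the Tag range fell by 0.22 to 0.41. CENPL fell by 0.27 ± 0.061, and its dimmer probe set fell by 0.33. In the CENP-H, -I, -K and -M group, CENPI fell by 0.24 ± 0.045 and CENPM by 0.24 ± 0.047, whereas CENPK was at -0.13 (adjusted p = 0.20) and CENPH at -0.03 (adjusted p = 0.807). CENPH read 7.55, 7.55 and 7.45 on knockdown arrays and 7.61, 7.45 and 7.57 on control arrays, so its groups overlapped, with a 95% confidence interval of -0.15 to 0.10. CENPW and CENPT are histone-fold partners that link the inner layer to NDC80. CENPW fell by 0.14 ± 0.034 (adjusted p = 0.0343), with 8.50 ± 0.0058 on knockdown and 8.65 ± 0.015 on control arrays (SD, n = 3 each). The CENPW call was lost whichever array was omitted, and after cyclic loess (adjusted p = 0.0796) and without _s_at and _x_at probe sets (adjusted p = 0.0507). CENPT was at -0.05 (95% confidence interval -0.15 to 0.05, adjusted p = 0.497), although a dimmer CENPT probe set, at 4.94 on knockdown and 5.23 on control arrays, fell by 0.29 (adjusted p = 0.0322 over all probe sets). CENPC, the scaffold that bridges CENP-A nucleosomes and the MIS12 complex, was at -0.15 (adjusted p = 0.0753). Its other probe set, within the Tag range, was at 0.08 (adjusted p = 0.671 over all probe sets).

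**Figure D2:**
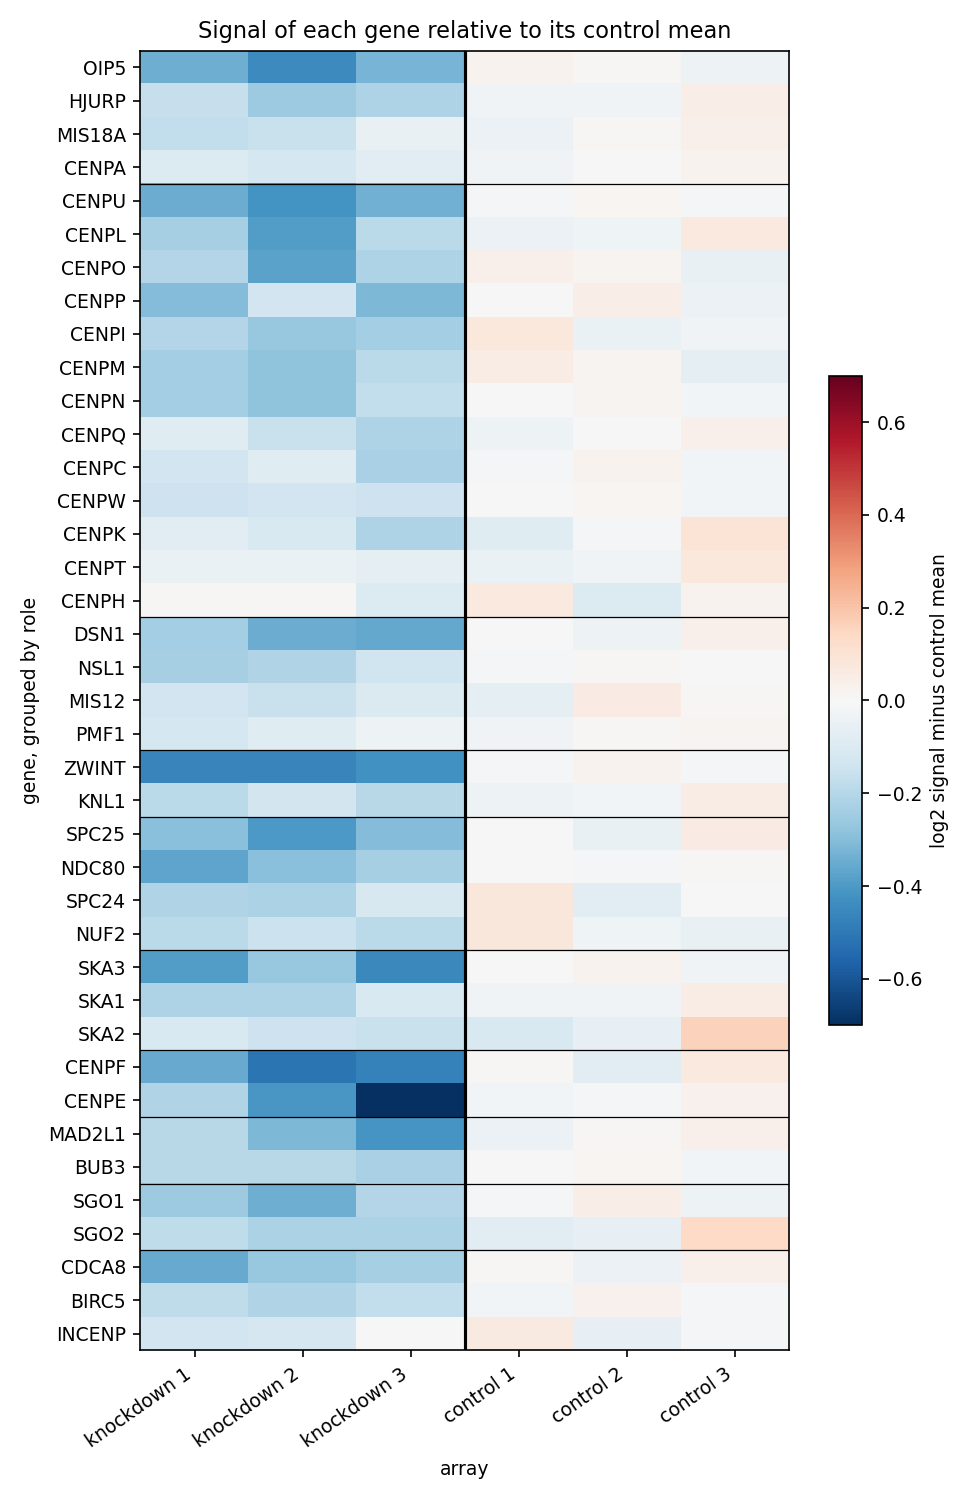
Log2 signal of the 39 genes on each array minus the gene's control mean, knockdown arrays left of control arrays, grouped by role as in the plot of changes. Blue is below the control mean. Knockdown columns are blue throughout except for faint cells of CENPH and INCENP, and CENPE on knockdown replicate 3 is the deepest cell at -0.71.

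Among the outer complexes, ZWINT showed the largest fall of all 39 genes. ZWINT binds KNL1 and helps bring the RZZ complex, and with it the motor dynein, to the kinetochore. It read 10.07, 10.07 and 10.11 on knockdown arrays, against 10.52, 10.56 and 10.52 on control arrays, and fell by 0.45 ± 0.036 on the log2 scale (SE, limma adjusted p = 0.000346), which on a linear scale fell by 26.8%. Its second probe set gave the same log2 change of -0.45. KNL1, the scaffold for the checkpoint kinase BUB1, fell by 0.17 ± 0.042 (adjusted p = 0.0385). It missed the threshold whichever array was omitted. Another KNL1 probe set fell by 0.37 (adjusted p = 0.0172 over all probe sets). A dimmer one, at -0.21, did not pass (adjusted p = 0.120), and the dimmest, within the Tag range, was at -0.01.

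The MIS12 complex, the hub between inner and outer layers, split evenly. DSN1, the subunit whose phosphorylation by AURKB opens the complex to CENPC, read 8.46, 8.35 and 8.34 on knockdown arrays, against 8.70, 8.66 and 8.73 on control arrays, a fall of 0.31 ± 0.046 (SE, limma adjusted p = 0.00544). NSL1 fell by 0.19 ± 0.039 (adjusted p = 0.0193) at its brightest probe set. Its dimmer probe sets, at -0.13 and -0.07, did not pass (adjusted p of 0.123 and 0.674 over all probe sets). With its probe sets averaged, the NSL1 call was lost (adjusted p = 0.0518). MIS12 was at -0.13 (adjusted p = 0.0981) and PMF1 at -0.08 (adjusted p = 0.251). Both had knockdown values wholly below control values without passing the test.

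The NDC80 complex is the main microtubule coupler, a rod of NDC80 and NUF2 at the microtubule end and of SPC24 and SPC25 at the chromatin end. SPC25 read 7.10, 6.99 and 7.09 on knockdown arrays, against 7.39, 7.34 and 7.45 on control arrays, a fall of 0.33 ± 0.048 (SE, limma adjusted p = 0.00511). NDC80 read 6.78, 6.86 and 6.92 on knockdown arrays, against 7.15, 7.14 and 7.16 on control arrays, a fall of 0.30 ± 0.045 (adjusted p = 0.00611). NUF2 fell by 0.18 ± 0.046 (adjusted p = 0.0441), a call lost whichever array was omitted, and SPC24 was at -0.18 (adjusted p = 0.0715). The groups did not overlap for any of the 4 subunits. The SKA complex holds kinetochores on shortening microtubules. SKA3 read 6.12, 6.25 and 6.06 on knockdown arrays, against 6.51, 6.54 and 6.49 on control arrays, a fall of 0.37 ± 0.054 (adjusted p = 0.00522). SKA1 fell by 0.18 ± 0.047 (adjusted p = 0.0459), a call kept in 1 of the 6 fits that leave out an array and lost after cyclic loess (adjusted p = 0.065). Its dimmer probe set fell by 0.37. SKA2 was at -0.14 (95% confidence interval -0.30 to 0.03, adjusted p = 0.264). SKA2 values overlapped between groups: it read 8.21, 8.17 and 8.16 on knockdown arrays and 8.21, 8.26 and 8.48 on control arrays.

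Both members of the set that belong to the fibrous corona fell by amounts close to that of ZWINT. The corona is the outermost layer that first catches microtubules, and genes of this layer outside the set are not covered by this statement. CENPF, a large coiled-coil protein, read 8.25, 8.09 and 8.13 on knockdown arrays, against 8.61, 8.53 and 8.67 on control arrays, a fall of 0.45 ± 0.057 (SE, limma adjusted p = 0.00299). Its second probe set gave a smaller fall of 0.18 (adjusted p = 0.0378 over all probe sets). CENPE, a kinesin that carries chromosomes toward the spindle equator, read 7.12, 6.92 and 6.62 on knockdown arrays, against 7.31, 7.32 and 7.36 on control arrays. Its fall of 0.44 carried the largest error of the 39 genes (SE 0.11, adjusted p = 0.0395), because the knockdown arrays differed among themselves. Without knockdown replicate 3, the lowest of them, CENPE fell by 0.31 (adjusted p = 0.0363). On leaving out knockdown replicate 2 or any control array the call was lost (adjusted p of 0.0942 to 0.117).

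Spindle checkpoint, cohesion-protecting and passenger genes completed the set. MAD2L1, the checkpoint protein that holds back CDC20, read 9.26, 9.14 and 9.04 on knockdown arrays, against 9.41, 9.46 and 9.49 on control arrays, a fall of 0.31 ± 0.059 (SE, limma adjusted p = 0.0165). BUB3, which docks the checkpoint kinases on KNL1, read 9.85, 9.85 and 9.82 on knockdown arrays, against 10.05, 10.06 and 10.03 on control arrays, a fall of 0.21 ± 0.035 (adjusted p = 0.00979). The arrays of each group lay close together for BUB3 (SD 0.0173 on knockdown and 0.0153 on control arrays), so a small change was clear of the spread. SGO1, the shugoshin that shields centromeric cohesin in mitosis, fell by 0.27 ± 0.048 (adjusted p = 0.0124). SGO2 was at -0.21 (adjusted p = 0.0711) at its brightest probe set and fell by 0.26 at another (adjusted p = 0.0172 over all probe sets). Of the passenger complex, which corrects faulty attachments through the kinase AURKB, CDCA8 (borealin) fell by 0.28 ± 0.046 (adjusted p = 0.00795) and BIRC5 (survivin) by 0.19 ± 0.037 (adjusted p = 0.0170). INCENP, which activates AURKB, was at -0.08 (95% confidence interval -0.21 to 0.04, adjusted p = 0.370). CPAP, the centriole gene set apart above, fell by 0.15 ± 0.038 (adjusted p = 0.0407) at a control signal of 5.32. That probe set missed the threshold in the fit over all probe sets (adjusted p = 0.0602). The other CPAP probe set, within the Tag range, was at 0.04.

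The 13 genes that did not pass were of 2 kinds. For CENPA, MIS18A, CENPC, CENPQ, MIS12, SPC24 and SGO2 the unadjusted 95% confidence interval of the change lay below 0. For CENPH, CENPK, CENPT, PMF1, SKA2 and INCENP it included 0, with lower bounds between -0.30 and -0.15. These intervals still hold a fall as large as the smallest called one, that of CENPW (log2 -0.14). Those of CENPH and CENPT end at -0.15 and hold no other called fall. At an unadjusted p under 0.05 stood 33 of the 39 genes. The share of all genes at this looser threshold was not counted, and the shares of called genes given above are for adjusted p.

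Most of the genes could be read at more than 1 probe set. The 39 genes had 96 probe sets, of which 50 fell and 0 rose in a fit adjusted over all 44994 probe sets that name 1 gene, where 5.33% were called lower and 4.76% higher. All 80 probe sets brighter than the Tag range had a negative log2 change, and 48 of them fell. The 4 probe sets at 0 or above, of CENPC, CENPT and MAD2L1, lay within that range. Of the 24 genes with more than 1 probe set, 4 fell at every one, 16 at some and 4 at none. In this fit CENPW, KNL1, NUF2 and SKA1 narrowly missed the threshold at the probe set that stands for them (adjusted p = 0.0554, 0.0531, 0.0580 and 0.0592). BIRC5 had 12 probe sets, the most of any gene here. Those that fell did so by 0.19 to 0.31, and the ones that did not pass were at -0.17 to -0.06.

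**Figure D3:**
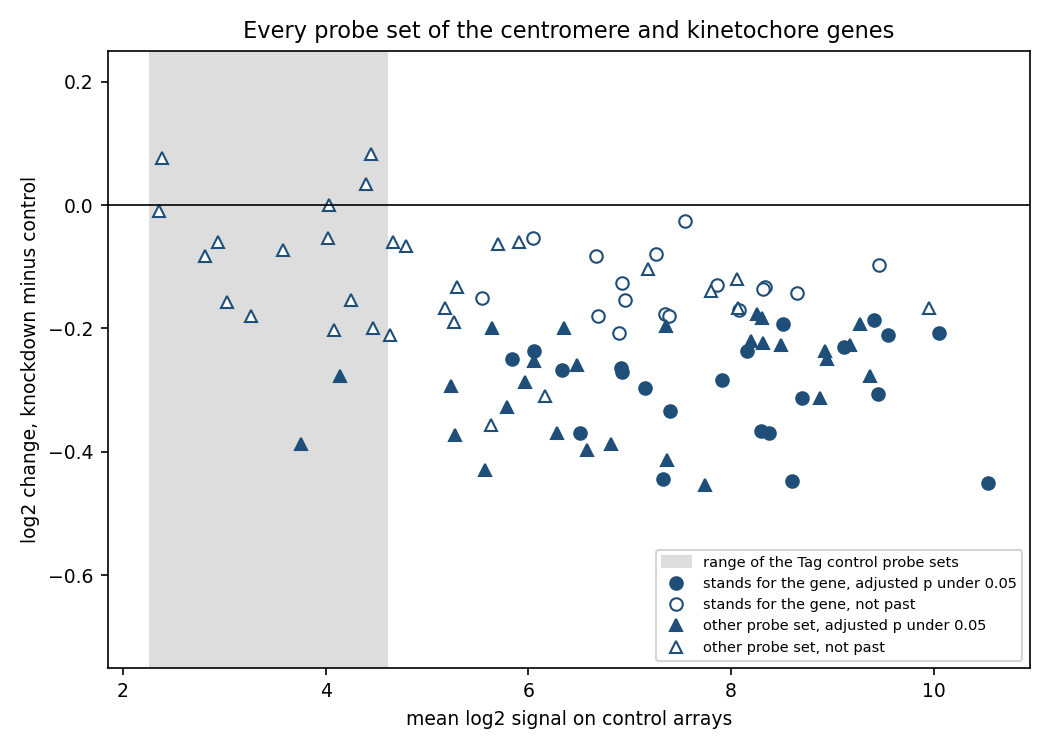
Log2 change (knockdown minus control) of all 96 probe sets of the 39 genes against their mean control signal, with the Tag control range shaded. Circles stand for the gene, triangles are its other probe sets, and filled symbols passed an adjusted p under 0.05 over all probe sets. All 80 probe sets above the Tag range lie below 0.

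The deviation was alike on the knockdown arrays. The median of the 39 genes, each set against its own control mean, was -0.20, -0.22 and -0.21 on knockdown replicates 1, 2 and 3. It was -0.01, -0.00 and 0.01 on control replicates 1, 2 and 3, where values near 0 follow by construction, since these arrays give the control mean. On each knockdown array 38 of the 39 genes lay below their control mean, and the exception was CENPH on replicates 1 and 2 and INCENP on replicate 3. The share of all genes below their control mean was not counted by array. The median deviation of all genes was 0, -0.02 and -0.02 on knockdown replicates 1, 2 and 3.

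Other genes of the pathway and of the cell cycle were read beside them. Of 31 measured kinetochore and checkpoint genes outside the set, 11 fell, 0 rose and 20 did not pass, with a median log2 change of -0.12. The 5 largest falls were those of TRIP13, the ATPase that recycles MAD2 (-0.40), ERCC6L, a translocase of centromeric DNA threads (-0.35), the kinesin KIF18A (-0.32), SPAG5, the spindle protein astrin (-0.32), and CENPS, a partner of CENPT (-0.31). AURKB was at -0.11 (adjusted p = 0.129) and BUB1 at -0.07 (adjusted p = 0.248). Of 40 S phase markers 33 fell and 0 rose, with a median of -0.26, and of 44 markers of G2 and M phase 22 fell and 0 rose, with a median of -0.17. The last list shares 6 genes with the 31. All these lists lay below the median of all genes, so the centromere and kinetochore genes did not move alone, and no difference between the lists was tested. In RNA of a whole culture, fewer cells in S, G2 or M phase and less transcript per cell cannot be told apart.

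**Figure D4:**
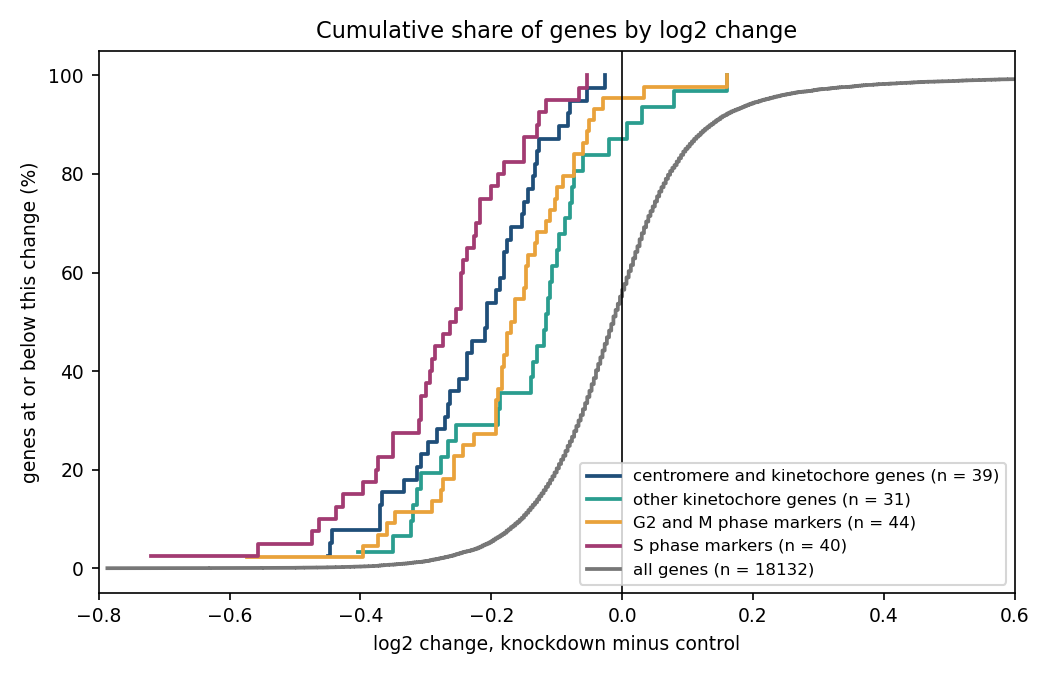
Cumulative share of genes at or below each log2 change (knockdown minus control) for the 39 centromere and kinetochore genes, 31 other kinetochore genes, 44 G2 and M phase markers, 40 S phase markers and all 18132 genes. The list curves lie left of that of all genes, and that of the S phase markers lies farthest left, with a median of -0.26.

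Markers of epithelial and other cell types were read as a description of the line. The 5 epithelial markers had control signals of 5.43 to 12.45, all above the Tag range, with summed log2 signals of 47.16 to 47.66 on knockdown and 47.63 to 47.78 on control arrays. KRT8 fell (log2 -0.15) and KRT19 rose (0.29). None of the 4 leukocyte, 5 fibroblast and 4 endothelial markers measured passed the test of knockdown against control, which does not bear on identity. Of these lists 1, 4 and 3 markers lay within the Tag range, and the brightest leukocyte marker, CD14, was at 6.25 on control arrays. Bacterial hybridization controls were higher on knockdown arrays by 0.28 log2 units and poly-A controls by 0.13. Scaled to them, all 39 genes were called lower, but so were 83.2% and 38.7% of all genes. The distance between the median of the 39 genes and the median of all genes, -0.19, is the same under both scalings, since each shifts whole arrays.

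How many of the 39 genes pass depends on single arrays. The count was 19, 13 and 21 without knockdown replicates 1, 2 and 3, and 16, 11 and 15 without control replicates 1, 2 and 3, when 4.09%, 3.04%, 4.37%, 3.60%, 2.60% and 3.08% of all genes were called lower. Leaving out an array also leaves fewer arrays to estimate the spread. Over these 6 fits OIP5, CENPU, DSN1, ZWINT, NDC80, SPC25, SKA3, CENPF, BUB3 and CDCA8 kept their call in all 6. CENPI, CENPN and SGO1 kept it in 5, CENPM, CENPO, MAD2L1 and BIRC5 in 3, and HJURP and CENPE in 2. CENPL, CENPP, NSL1 and SKA1 kept it in 1, and CENPW, KNL1 and NUF2 in 0. Among other choices, averaging a gene's probe sets gave 30 of 39 (7.86% of all genes), dropping _s_at and _x_at probe sets 22 of 35 (5.71%), and cyclic loess 21 of 39 (5.01%). Keeping genes above the median signal gave 32 (18.3% of all genes), a prior variance that follows the signal 31 (11.4%), no variance moderation 14 (3.88%), and the replicate number as a block 20 (4.12%).

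**Figure D5:**
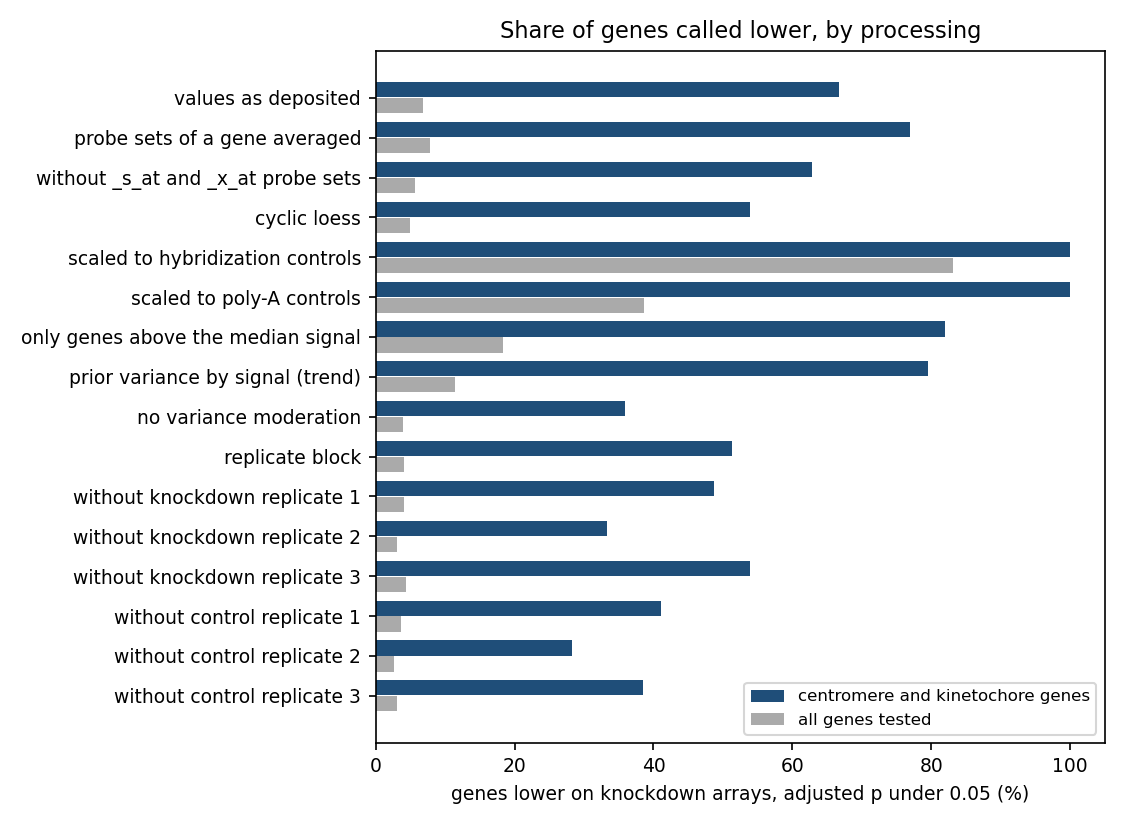
Share of the centromere and kinetochore genes (blue) and of all genes tested (grey) called lower on knockdown arrays (limma, adjusted p under 0.05), for the values as deposited and for each alternative. The blue bar was longer than the grey one in every setting, from 11 of 39 genes without control replicate 2 to 39 of 39 under both control scalings.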

How the data were processed

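Total RNA from 3 LINC00525 knockdown and 3 control samples of A549 cells was measured on 1-colour arrays, from 100 ng of RNA per the labels' protocols. The 49372 probe sets carry log2 values as deposited by the authors. The submitters' processing notes name RMA, a method of background correction, quantile normalization and probe set summary, with software and release not given in the sources used here. Quantile normalization removes a change shared by most genes, and signals near background understate differences. Array medians were 5.10 to 5.11, so nothing was normalized again.

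Probe sets were named from GEO's platform annotation, with symbols updated by gene identifier: 44994 had 1 symbol and were used, and 1832 had several and 2546 none. The brightest probe set over all 6 arrays stood for a gene (18132 genes). The comparison used lmFit and eBayes of limma 3.58.1 under R 4.3.3, 2-sided and without covariates, and Benjamini-Hochberg adjustment over all genes and a threshold of 0.05. The fit was tested on simulated data with 200 changed genes. It called 0% of falls of 0.1 log2 units, 12% of those of 0.2, 60% of those of 0.3 and 86% of those of 0.4. A true fall of 0.2 was thus mostly missed there. The simulation held fewer changed genes than the 1239 falls and 1046 rises called in the deposited data. With fewer changed genes the Benjamini-Hochberg threshold is stricter, so these percentages do not carry over to the deposited data. No detection calls were used, and 17 Tag control probe sets served as a guide to background. The number of arrays limits the precision.

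The members, gene lists, motifs and tests were chosen with earlier results of these data known. The rule for named genes took all members, LINC00525, CDKN1A and the 5 largest falls and rises among the other kinetochore genes (no rise passed), and AURKB and BUB1 were added after their values were seen. Alternatives covered the probe set chosen, cross-hybridizing probe sets, cyclic loess, scaling to control probe sets, a filter on dim genes, the variance prior, a replicate block and leaving out each array. Arrays of 1 group correlated at 0.9986 to 0.9989, arrays of different groups at 0.9959 to 0.9962, and at most 4.81% of probe sets had identical values in any pair. Figures were drawn with matplotlib 3.10.9.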

Additional observations from a re-analysis of the deposited data

How the results depend on the processing

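The direction of the 39 genes rarely changed, but not every alternative could change it. The filter on dim genes, the variance settings and the replicate block leave each log2 change as it was. Scaling to control probe sets shifts all genes down alike, and each of these scalings added 13 calls. Of 581 values for single genes under the alternatives, 444 kept their direction and their side of the threshold, 89 lost the call, 44 gained it and 4 changed sign, all of them for genes that had not passed. These were CENPC without _s_at and _x_at probe sets (0.083) and CENPH after cyclic loess (0.0030), without knockdown replicate 3 (0.0067) and without control replicate 1 (0.0067), within a range for CENPH of -0.073 to 0.0067 on leaving out 1 array. The count of the 39 genes called lower was 30 with probe sets averaged, 22 of 35 without _s_at and _x_at probe sets, 21 after cyclic loess, 32 among genes above the median signal, 31 with a prior variance that follows the signal, 14 without variance moderation, and 11 to 21 on leaving out 1 array. Their median log2 change was -0.20 with probe sets averaged, -0.18 after cyclic loess, -0.49 scaled to the hybridization controls, -0.33 scaled to the poly-A controls and -0.22 to -0.20 on leaving out 1 array. Over all genes, falls and rises numbered 15085 and 232 scaled to the hybridization controls, 7011 and 522 scaled to the poly-A controls, 909 and 1290 after cyclic loess, 1885 and 1313 above the median signal, 2063 and 1459 with the signal-dependent prior, 703 and 611 without moderation, and 472 to 792 and 632 to 834 on leaving out 1 array, against 1239 and 1046 as deposited. Of the other kinetochore genes, 30, 26 and 18 fell under hybridization scaling, poly-A scaling and the signal-dependent prior, where 1 also rose, and 7 to 9 fell on leaving out 1 array. LINC00525 was at -0.30 without moderation, no longer past the threshold (adjusted p = 0.151), and at -0.36 to -0.25 on leaving out 1 array. It was dropped by the filter on dim genes. The causes were not tested, except that leaving out an array or a probe set leaves less data by construction.

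With the replicate number as a block, 20 of the 39 genes fell, all among the 26, and over all genes 747 fell and 818 rose. Deviations of same-numbered arrays from their group means correlated at 0.09, 0.06 and -0.01. These values cannot show whether arrays were paired, and no label says so. The block was not used in the main fit.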
